A study of Mus musculus with 6 samples.

Results

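The genes described here are 9 members of the JAK kinase and STAT transcription factor families, Jak1, Jak2, Jak3, Stat2, Stat3, Stat4, Stat5a, Stat5b and Stat6, taken by name from a table of 16440 genes. Their mRNA levels were measured by RNA sequencing in 3 libraries of normal myeloid progenitors (MPs) and 3 libraries of acute promyelocytic leukemia (APL) progenitors. The normal MPs were untransformed bone marrow cells of FVB N/J mice, sorted as Lin-Sca-1-c-Kit+, a gate that removes cells with mature lineage markers and cells with the stem cell marker Sca-1. The APL progenitors derived from transgenic mice of the same strain that carry hMRP8-PML/RARα, in which the promoter of a human myeloid gene drives the fusion gene PML/RARα. They had been labelled with GFP through the retroviral vector MigR1, grown in syngeneic recipient mice and sorted for c-Kit. The labels name no drug for either group. Whether the libraries of a group stem from different mice, and those of APL from different leukemias, is not stated, so n counts libraries, and p-values measure only the spread between them. No label gives the age of the animals.

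JAKs are tyrosine kinases bound to the inner tails of cytokine receptors that lack a kinase of their own. When a cytokine brings receptor chains together, the JAKs phosphorylate each other, the receptor and then STAT proteins, which pair, enter the nucleus and bind DNA. In bone marrow progenitors, Jak2 serves the receptors for erythropoietin and the βc cytokines (GM-CSF, IL-3 and IL-5), with Stat5a and Stat5b as main effectors, whereas Jak1 serves interferon receptors and the gp130 family and, together with Jak3, the receptors built on the common γ chain. An mRNA level says nothing of phosphorylation, the step that activates these proteins.

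The fragments behind each library, after undoing a scaling in the deposited values, numbered between 22976905 and 26932327 in the MP libraries and between 20608715 and 28382785 in the APL libraries. MP library 3 stood apart from the other MP libraries. Its typical squared differences from MP libraries 1 and 2, gene by gene, were 15.6 and 15.8 times those of counting noise. They were 3.21 times between MP libraries 1 and 2 and 3.44 to 7.01 times among the APL libraries. Values without MP library 3 are therefore given for the members that changed. Levels are given as scaled fragments, a value on the scale of sequenced fragments that suits comparing 1 gene between libraries, or as FPKM (fragments corrected for the length of the transcript and the size of the library), which suits comparing genes within a library. Differences are log2 fold changes of scaled fragments + 1, APL over MP, from limma, with the Benjamini-Hochberg adjustment over the 14595 genes tested. A gene was called when its adjusted p was under 0.05 and its fold change over 1.5. By that rule 21.7% of all genes tested were called higher and 24.4% called lower in APL, and the median over all genes tested was a log2 fold change of -0.10. In RNA from bulk sorted cells, fewer cells of a type and less RNA per cell cannot be told apart.

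All 9 members were detected in every library and passed the filter on low values. Of the 9, Stat4 rose in APL progenitors, while Stat5a, Stat5b and Jak2 fell, and the other 5 were not called. Thus 1 of 9 was called higher and 3 of 9 lower, beside the shares of 21.7% and 24.4% among all genes. By the adjusted p alone, 4 members were higher and 3 lower, where 29.7% and 37.3% of all genes tested were. In none of the 9 did the 3 MP and the 3 APL values overlap, which is also the case for 70.9% of all genes tested. Each member gave a p of 0.1 in the two-sided exact permutation test, the smallest that 3 libraries against 3 allow. The median log2 fold change of the 9 members was 0.12.

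Jak1, the kinase shared by the interferon, gp130 and common γ chain receptors, had 5500, 5673 and 5712 scaled fragments in the MP libraries and 5995, 6254 and 6154 in the APL libraries, each group in the order of its numbers. All the APL values lay above all the MP values, but the gap was small, with a log2 fold change of 0.12 (95% interval -0.02 to 0.27, limma adjusted p = 0.12), and its direction depended on the scaling: with every library brought to the same total it was -0.01. Jak2, the kinase of the erythropoietin and βc receptors, had 2744, 2720 and 2780 scaled fragments in the MP libraries and 1823, 1724 and 1688 in the APL libraries. Its APL mean was 63.5% of its MP mean, a fall in all the APL libraries that passed both thresholds (log2 fold change -0.66, SE 0.06, limma adjusted p = 2.2e-05) and was -0.65 without MP library 3. The size of that fall was close to the threshold, with a fold change of 1.57 against 1.5 and an interval of -0.80 to -0.51 on the log2 scale.

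Jak3, the partner of the common γ chain, had 2627, 2668 and 2847 scaled fragments in the MP libraries and 2322, 2624 and 2255 in the APL libraries. APL library 2 lay just below MP library 1, and the difference did not pass (log2 fold change -0.18, interval -0.36 to -0.0008, limma adjusted p = 0.071). Jak3 lies on chromosome 8, whose 778 genes tested had a median log2 fold change of 0.48, while every other chromosome that holds a member had a median below 0. Against the median of its own chromosome Jak3 was lower by 0.66 on the log2 scale, and the part of the chromosome in its value was not tested. The fourth kinase of the family, Tyk2, which pairs with Jak1 at interferon receptors, is not among the 9 members. Its log2 fold change was 0.20 (limma adjusted p = 0.036, fold change 1.15), so that of the 4 JAK family genes only Jak2 passed both thresholds. Jak2 was called lower, as were 24.4% of all genes tested.

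**Figure D1:**
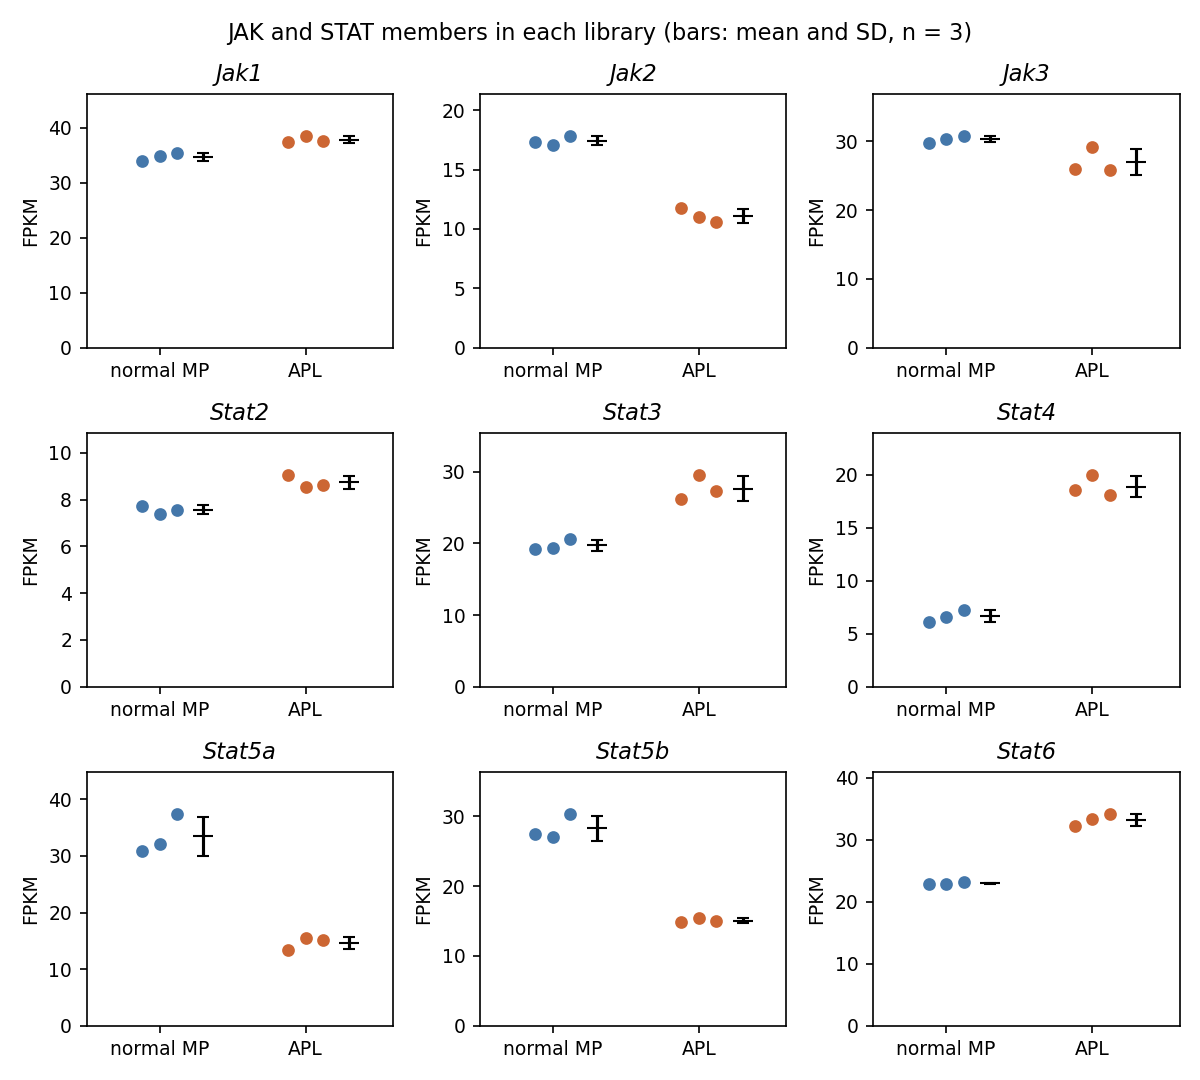
Expression of the 9 members in each library, as FPKM on linear axes that start at 0, one panel per gene and each with its own axis. Blue points are the 3 normal MP libraries and orange points the 3 APL libraries, in the order of their numbers, and bars give the mean and SD (n = 3). Stat4 rises from 6.65 to 18.9 FPKM, Stat5a falls from 33.5 to 14.7 and Stat5b from 28.2 to 15.1, and the points of the 2 groups overlap in no panel.

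Stat5a and Stat5b encode closely related factors that carry erythropoietin, IL-3 and GM-CSF signals. Stat5a had 3182, 3303 and 3972 scaled fragments in the MP libraries and 1363, 1580 and 1526 in the APL libraries. The highest APL value was under the lowest MP value by a wide margin, and MP library 3 was the highest of the 6. The APL mean was 42.7% of the MP mean, with a log2 fold change of -1.22 (SE 0.10, limma adjusted p = 7.1e-06), or -1.12 without MP library 3. Stat5b had 3674, 3609 and 4194 scaled fragments in the MP libraries and 1996, 2074 and 1996 in the APL libraries. It too was highest in MP library 3 and nearly level among the APL libraries. Its APL mean was 52.9% of its MP mean (log2 fold change -0.92, SE 0.08, limma adjusted p = 8.0e-06), or a log2 fold change of -0.85 without MP library 3. The paper's methods keep only uniquely mapped reads, but whether that pipeline made the deposited table is unclear, so how fragments that match both genes were treated is uncertain.

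Stat4, which carries IL-12 and type I interferon signals in T and NK cells, was the member with the largest difference. It had 562, 596 and 657 scaled fragments in the MP libraries and 1653, 1777 and 1666 in the APL libraries. Every APL library held more than 2 times the value of any MP library. The APL mean was 281% of the MP mean (log2 fold change 1.49, SE 0.08, limma adjusted p = 6.3e-07), and without MP library 3 the log2 fold change was 1.55. Since Stat4 is best known from lymphoid cells, markers of T and NK cells are given beside it. Their summed level was 250 ± 13.4 FPKM in MPs and 256 ± 12.9 in APL (SD, n = 3), nearly all of it from Nkg7 (245 and 253 FPKM), a granule membrane gene. None of the 6 T and NK cell markers tested was called higher, 3 were called lower, Cd3e was at 0 in all the MP libraries and Cd3g at 0 in all the APL libraries.

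Stat6, Stat3 and Stat2 were higher in APL with adjusted p under 0.05 but with fold changes under 1.5, so they were not called. Stat6, the effector of IL-4 and IL-13, had 2642, 2604 and 2700 scaled fragments in the MP libraries and 3671, 3852 and 3920 in the APL libraries. The 2 groups were far apart compared with the spread inside each, and the log2 fold change was 0.53 (SE 0.06, limma adjusted p = 8.3e-05). With median ratio scaling Stat6 was called higher, at 0.59 (limma adjusted p = 2.3e-05). Stat3, the effector of gp130 and G-CSF signals, had 2598, 2612 and 2833 scaled fragments in the MP libraries and 3515, 4021 and 3694 in the APL libraries. Its log2 fold change was 0.48 (SE 0.08, limma adjusted p = 4.7e-04). Stat2, which joins Irf9 in the interferon-stimulated complex ISGF3, had the smallest difference of the 6 STAT members, at 1010 ± 29.95 scaled fragments in MPs and 1162 ± 30.7 in APL (SD, n = 3; log2 fold change 0.20, limma adjusted p = 0.028). Its adjusted p was 0.42 with every library brought to the same total, and without MP library 2 it was 0.11, so the count of 4 members higher by the adjusted p alone rests in part on these choices. Of the 6 STAT members, 1 was thus called higher (Stat4) and 2 lower (Stat5a and Stat5b), beside 21.7% and 24.4% of all genes tested. The other 3 were not called.

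**Figure D2:**
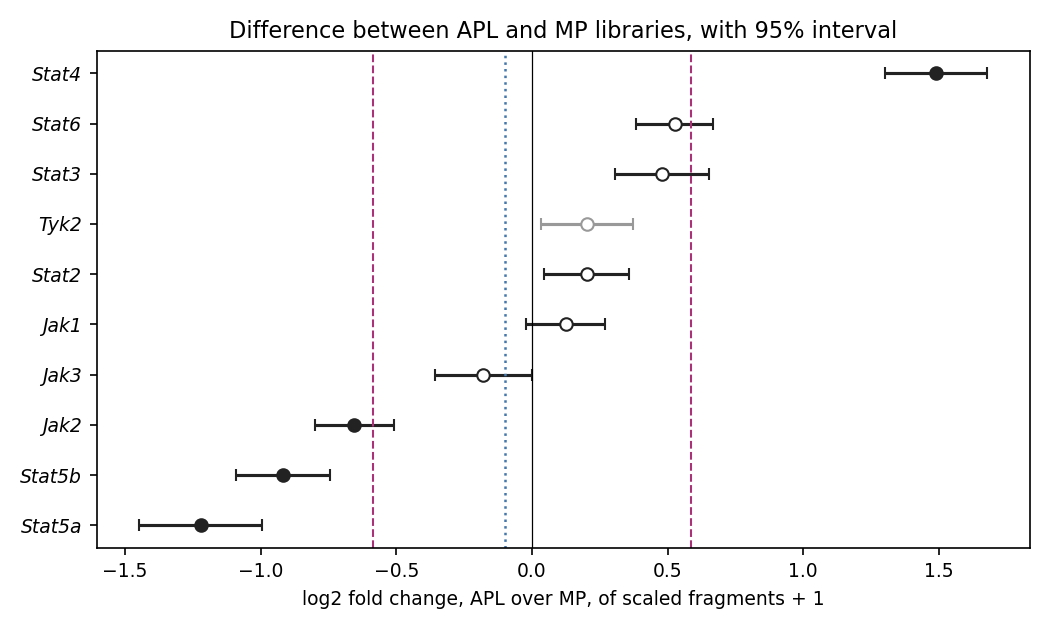
Log2 fold change (APL over MP) of scaled fragments + 1 for the 9 members (black) and for Tyk2 (grey), with 95% intervals from limma. Filled points are genes called; dashed lines mark a fold change of 1.5 in either direction and the dotted line the median of all genes tested (-0.10). Stat4 (1.49) lies beyond the dashed line with its whole interval, as do Stat5a (-1.22) and Stat5b (-0.92), whereas the interval of Jak2 (-0.66) crosses it.

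The neighbours of these genes on the chromosomes were set beside them. In the RefSeq annotation of GRCm38.p6, Stat5b, Stat5a and Stat3 lie side by side on chromosome 11, Stat5b at 100780731 to 100859004, Stat5a at 100859351 to 100885169 and Stat3 at 100886806 to 100939594. Gaps of 346 and 1636 bases separate them, and Stat5a runs on the plus strand between Stat5b and Stat3 on the minus strand. Within this cluster Stat5b and Stat5a fell and Stat3 did not. Stat4 lies on chromosome 1 at 51987106 to 52107189. Stat6 (127642955 to 127660987) and Stat2 (128270498 to 128292853) lie 609510 bases apart on chromosome 10. Jak1 lies on chromosome 4 (101151974 to 101265282), Jak2 on chromosome 19 (29251803 to 29313095) and Jak3 on chromosome 8 (71676383 to 71690577). In the deposited table some rows cover a merged locus, and Stat6 shares its own with Nab2, a transcriptional corepressor. Nab2 rose from 109 to 441 scaled fragments (log2 fold change 2.02, limma adjusted p = 1.3e-06). How fragments were assigned where Stat6 and Nab2 overlap is not known. Jak1 shares its locus with Raver2 and Jak3 with Insl3, whose means were at most 12.7 and 2.97 scaled fragments in either group.

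Per length, Jak1 and Stat5a stood at the top in MPs and Jak1 and Stat6 in APL. The order in the MP libraries by mean FPKM was Jak1 (34.7), Stat5a (33.5), Jak3 (30.3), Stat5b (28.2), Stat6 (23.0), Stat3 (19.8), Jak2 (17.4), Stat2 (7.56) and Stat4 (6.65). Neighbours in that order were separated in all libraries except Jak1 and Stat5a, and Jak3 and Stat5b, whose values overlapped. In APL the order was Jak1 (37.8), Stat6 (33.2), Stat3 (27.6), Jak3 (27.0), Stat4 (18.9), Stat5b (15.1), Stat5a (14.7), Jak2 (11.1) and Stat2 (8.74). There the values of Stat3 and Jak3 overlapped, as did those of Stat5b and Stat5a. Stat4 moved from the last place to the fifth, and Stat5a from the second to the seventh.

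The summed level of the 6 STAT members was nearly the same in both groups, 119 ± 6.66 FPKM in MPs and 118 ± 4.02 in APL, but its makeup differed. Stat5a and Stat5b together held 51.0%, 51.3% and 53.6% of it in the MP libraries and 24.7%, 25.2% and 25.4% in the APL libraries. Stat4 went from 5.60% ± 0.204 to 16.0% ± 0.569 of the STAT sum, Stat6 from 19.4% ± 0.939 to 28.1% ± 0.828 and Stat3 from 16.7% ± 0.288 to 23.4% ± 0.704 (SD, n = 3). Stat2 held 6.39% ± 0.394 and 7.41% ± 0.481. Among the 3 JAK members the sum was 82.5 ± 1.44 FPKM in MPs and 75.9 ± 2.40 in APL. Jak2 held 21.1% ± 0.319 of it in MPs and 14.6% ± 0.875 in APL, and Jak1 42.1% ± 0.272 and 49.9% ± 0.919, without overlap, whereas the shares of Jak3 overlapped (36.8% ± 0.0805 and 35.5% ± 1.32). The ratio of Stat5a to Stat3 FPKM was 1.69 ± 0.109 in MPs and 0.530 ± 0.0211 in APL, so the more abundant of these neighbours changed from Stat5a to Stat3. The ratio of Stat5a to Stat5b was 1.18 ± 0.0529 and 0.973 ± 0.0576. These shares are descriptions, and a share can change because other members of the sum did.

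**Figure D3:**
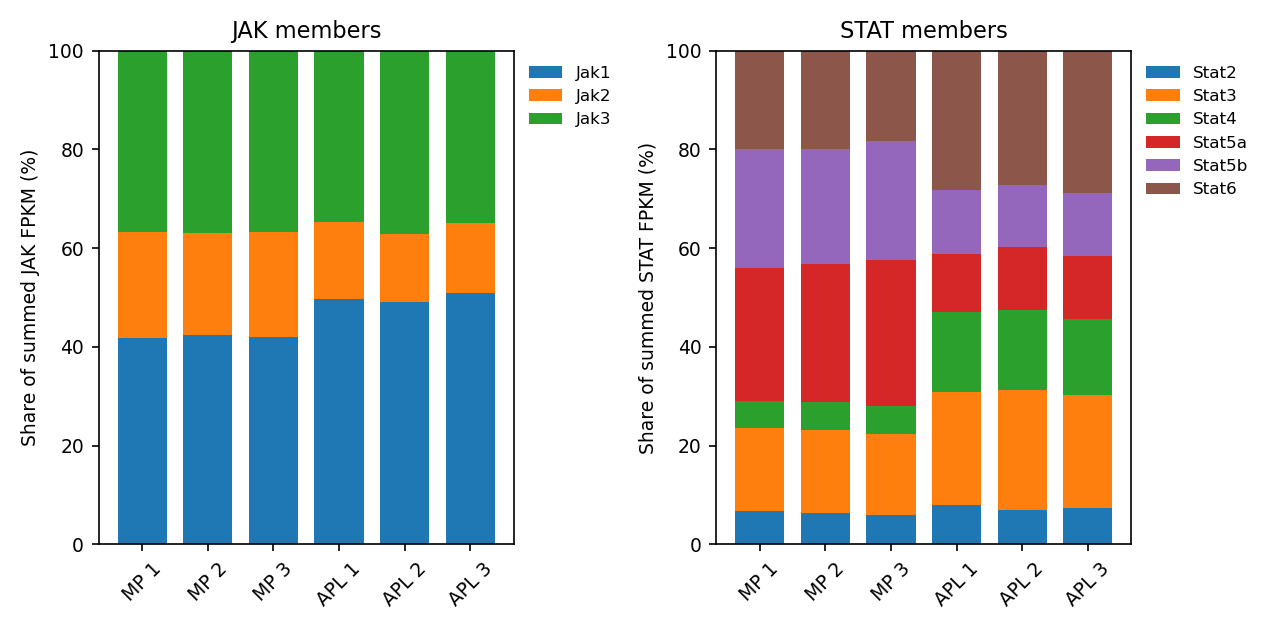
Share of each member in the summed FPKM of the 3 JAK members (left) and of the 6 STAT members (right), in percent, one stacked bar per library. The bands of Stat5a and Stat5b together shrink from 51.0% to 53.6% in the MP libraries to 24.7% to 25.4% in the APL libraries, while the bands of Stat4, Stat3 and Stat6 widen.

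The receptors that bind JAKs spread over a wider range than the JAKs and STATs themselves, from -6.93 to 6.22 on the log2 scale against -1.22 to 1.49. Of 36 listed receptor chains 33 were tested, and 12 were called higher (36.4%) and 11 lower (33.3%), beside 21.7% and 24.4% of all genes, with a median log2 fold change of 0.29. Epor, the erythropoietin receptor, had 1150, 1236 and 1654 scaled fragments in the MP libraries and 8.25, 9.54 and 12.3 in the APL libraries (log2 fold change -6.93, SE 0.20, limma adjusted p = 2.3e-08). Epor signals through Jak2 and Stat5, and in the list of receptors it fell the most.

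Il6st, which encodes gp130, the signalling chain shared by IL-6 family cytokines that act through Jak1 and Stat3, had 1218, 1080 and 1087 scaled fragments in the MP libraries and 40.1, 32.1 and 35.8 in the APL libraries (log2 fold change -4.94, SE 0.13). Its level fell while that of Stat3 was higher by 0.48 on the log2 scale. The βc chain Csf2rb, which binds Jak2, had 2065, 1957 and 1777 scaled fragments in the MP libraries and 11930, 13195 and 12482 in the APL libraries (log2 fold change 2.70, SE 0.08, limma adjusted p = 2.3e-08). Its ligand-binding partners Csf2ra (GM-CSF, log2 fold change 1.77) and Il3ra (IL-3, log2 fold change 1.81) were also called higher, and the third, Il5ra (IL-5), was called lower at -2.03, from 17.97 to 3.69 scaled fragments. Csf2rb2, a near-identical copy of Csf2rb used by IL-3 in mice, had a log2 fold change of 2.06, and how fragments that match both copies were treated is uncertain, as for Stat5a and Stat5b. Csf2rb and Csf2rb2 lie on chromosome 15, whose 563 genes tested had a median log2 fold change of 0.46. Of the other listed receptors tested on that chromosome, Ghr was called higher (6.22), and the rest had low levels. Lifr (-2.05, from 11.9 to 2.08 scaled fragments) and Il7r (-1.54, from 47.6 to 16.2) were called lower. Il2rb (-0.99, from 7.66 to 2.89) was not called. The part of the chromosome in these values was not tested.

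Csf3r, the G-CSF receptor of the granulocytic lineage, rose from 3833 to 7030 scaled fragments (log2 fold change 0.89, SE 0.12), and Il2rg, the common γ chain that binds Jak3, had 716, 743 and 960 scaled fragments in the MP libraries and 1388, 1439 and 1480 in the APL libraries (log2 fold change 0.84, SE 0.11). Ifnar1, a chain of the type I interferon receptor, was higher by 0.44 on the log2 scale with a fold change under 1.5. The largest rises in the list were those of Ghr, the growth hormone receptor, from 10.5 to 814 scaled fragments (log2 fold change 6.22), and Il13ra1, a chain of the IL-13 receptor upstream of Stat6, from 8.33 to 318 (log2 fold change 5.16). Ghr also lies on chromosome 15. The IL-12 receptor chains upstream of Stat4, chosen here after their values were seen, differed in direction: Il12rb1 was called higher (log2 fold change 1.04) and Il12rb2 lower (-4.01).

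**Figure D4:**
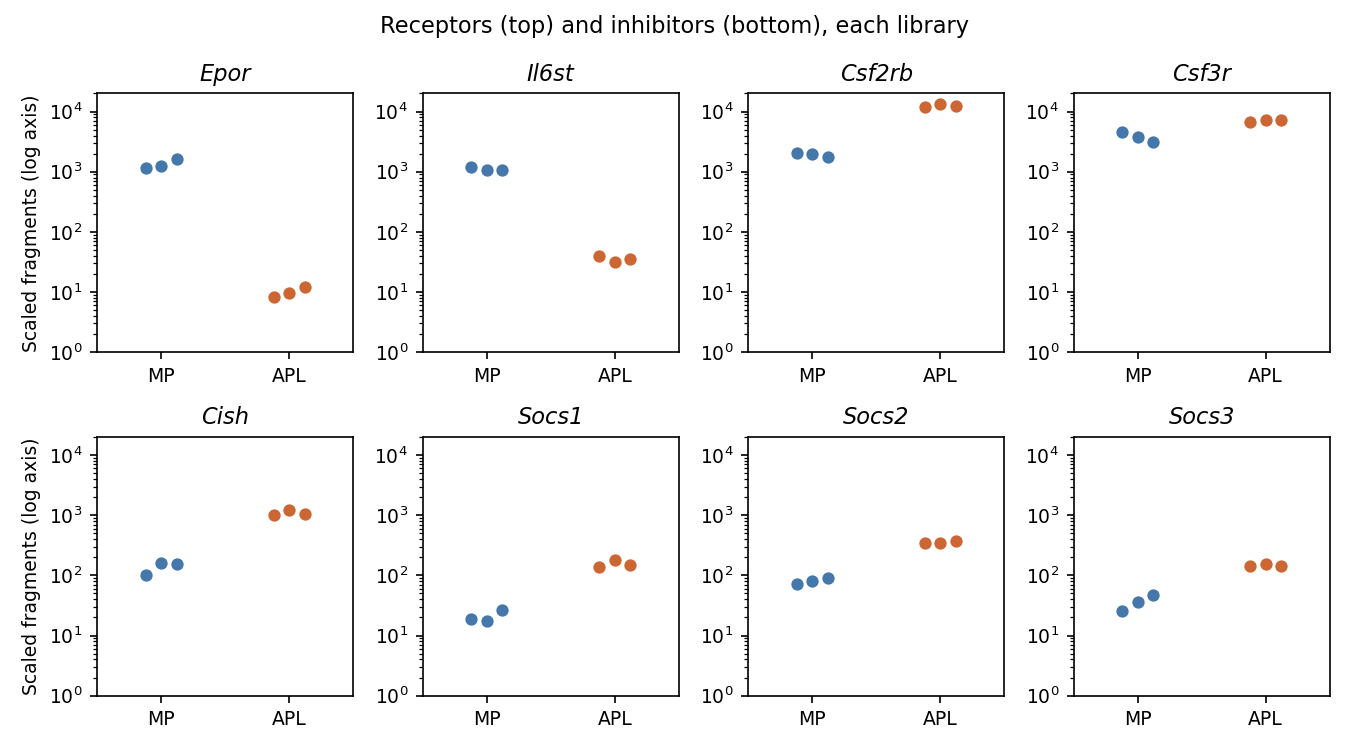
Scaled fragments in each library on logarithmic axes for 4 receptor chains (top) and 4 inhibitors (bottom), with the 3 MP libraries in blue and the 3 APL libraries in orange. The log2 fold changes are -6.93 for Epor, -4.94 for Il6st, 2.70 for Csf2rb and 0.89 for Csf3r. Cish, Socs1, Socs2 and Socs3 rise in all the APL libraries.

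The inhibitors of the pathway were more often higher than lower. Of 20 listed, 7 were called higher and 1 lower, or 35% and 5% beside 21.7% and 24.4% of all genes, with a median log2 fold change of 0.23. The group included the feedback inhibitors that STATs themselves induce. Cish, a feedback inhibitor known as a target of Stat5, had 100, 161 and 154 scaled fragments in the MP libraries and 1004, 1246 and 1043 in the APL libraries (log2 fold change 3.00, SE 0.18, limma adjusted p = 1.1e-06). Socs2, another inhibitor known as a Stat5 target, had means of 81.7 scaled fragments in MPs and 356 in APL (log2 fold change 2.12). Both rose in the libraries in which Stat5a and Stat5b fell. Socs1, which blocks JAK activity after interferon, had 18.7, 17.1 and 26.2 scaled fragments in the MP libraries and 135, 178 and 149 in the APL libraries (log2 fold change 2.85). Socs3, which blocks gp130 and G-CSF signals, had 25.3, 36.2 and 47.8 in the MP libraries and 145, 156 and 141 in the APL libraries (log2 fold change 2.03).

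Outside the feedback group, the phosphatases Ptpn6 (SHP-1), Ptpn1 and Ptprc (CD45) were called higher, at log2 fold changes of 0.72, 0.98 and 1.00. Socs6, which is less tied to STAT feedback, was the 1 inhibitor called lower (-0.80, from 1043 to 600.2 scaled fragments). Sh2b3 (LNK), an adaptor that restrains Jak2 at cytokine receptors, had 0.17 (interval -0.08 to 0.41, limma adjusted p = 0.20) and overlapping groups. The protein inhibitors of STAT, Pias1 to Pias4, were not called.

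STAT dimers bind a palindrome known as the GAS motif, and its plain form TTCNNNGAA, which is its own reverse complement and was therefore found on both strands at once, was searched in the RefSeq promoter windows of GRCm38.p6, from 250 bases before a gene's start to 50 after. It occurs in 8.30% of all 32851 windows, and in at least 1 window of 8.34% of the 11537 genes tested that have one. None of the 9 members, all of which have a window, holds it. Among the inhibitors with a window it was found in 2 of 13, Cish and Socs3, which are printed here because both rose in APL. The stretches run 5′ to 3′ on the gene's strand with the matches in capitals, Cish at chr9:107296654-107296683 on the plus strand and Socs3 at chr11:117969502-117969530 on the minus strand.
Cish: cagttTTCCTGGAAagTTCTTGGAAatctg
Socs3: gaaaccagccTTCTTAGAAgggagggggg
The stretch of Cish holds 2 matches in tandem, which begin at bases 1 and 12 counted from its annotated start, and the match of Socs3 begins 154 bases before the start. Among the listed targets with a window the motif was found in 1 of 13, Bcl6, whose log2 fold change was 0.36 (limma adjusted p = 0.036) with a fold change under 1.5. A match is a stretch of letters, and binding was not measured.

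Of 13 partners of the STATs, 4 were called higher (30.8%) and 2 lower (15.4%), beside 21.7% and 24.4% of all genes, with a median log2 fold change of -0.01. The largest change in this list was that of Irf9, the DNA-binding subunit that joins Stat2 in ISGF3, with 1014, 944 and 1118 scaled fragments in the MP libraries and 431, 453 and 425 in the APL libraries (log2 fold change -1.23, SE 0.09, limma adjusted p = 3.4e-06). Irf9 thus fell, while Stat2 was not called. Nmi, which binds STATs after interferon, fell as well (-0.73, from 431 to 257 scaled fragments). Gab2, an adaptor at βc receptors, rose from 659 to 1238 scaled fragments (0.91), and Ncoa1, a STAT coactivator, rose from 780 to 1252 (0.68), a call lost on FPKM (0.57) and with every library brought to the same total (0.55).

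Of 18 genes known as STAT targets, 4 were called higher and 4 lower (22.2% each), shares close to the 21.7% and 24.4% of all genes, with a median log2 fold change of 0.38. Ccnd2, cyclin D2, a target of Stat5 in many cell types, had 2412, 2728 and 2266 scaled fragments in the MP libraries and 13.0, 13.0 and 17.3 in the APL libraries (log2 fold change -7.33, SE 0.15, limma adjusted p = 5.6e-09). The related Ccnd1 fell by 2.96 on the log2 scale. Id1, a regulator of differentiation, went the other way, from 116 to 731 scaled fragments (2.65), and so did the cell cycle inhibitor Cdkn1a, from 211 to 932 (2.14). Of the survival genes, Bcl2l1 (BCL-XL) was called higher at 0.67, a call lost without APL library 2 (0.57) and with every library brought to the same total (0.54), Pim1, a kinase induced by Stat5, was higher by 0.54 (limma adjusted p = 0.0015) with a fold change of 1.46, and Mcl1 had 0.07 (interval -0.10 to 0.24) and overlapping groups. In all, 84 pathway genes outside the members were tested, of which 27 (32.1%) were called higher and 18 (21.4%) lower, beside 21.7% and 24.4% of all genes. Groups did not overlap in 66 of the 84, where they did not in 70.9% of all genes tested.

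**Figure D5:**
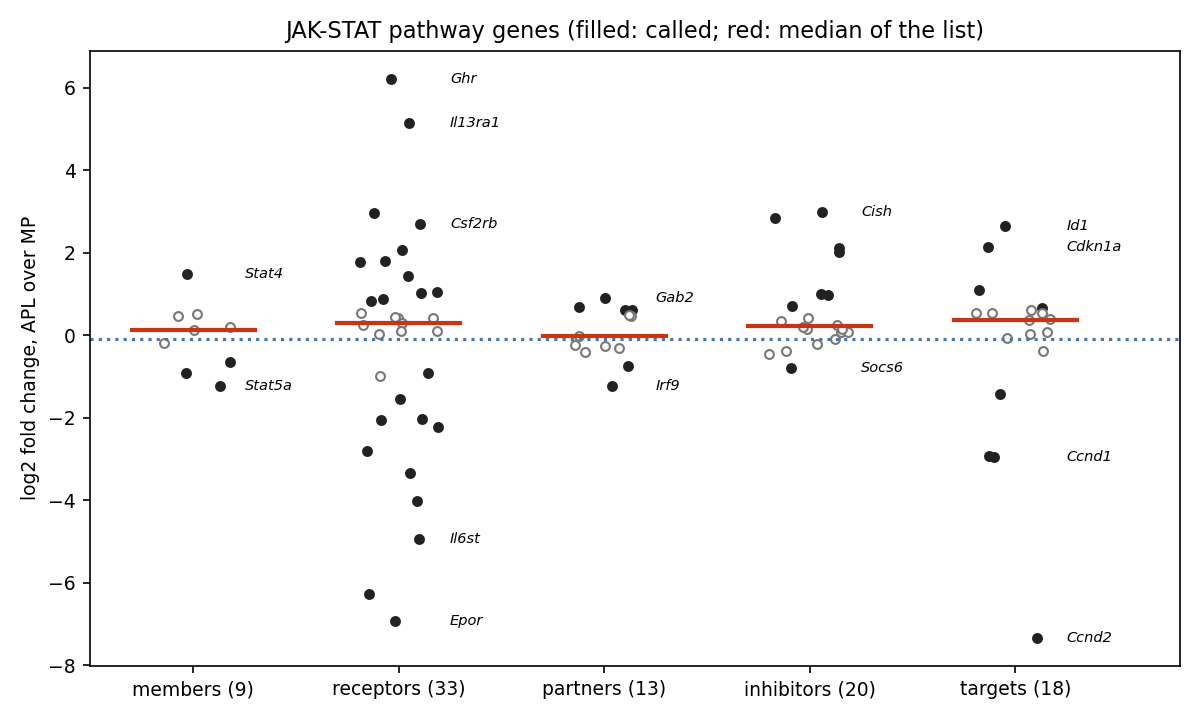
Log2 fold change (APL over MP) of each gene in the member, receptor, partner, inhibitor and target lists, with the number of genes tested in brackets. Filled points are genes called, red lines the median of each list and the dotted line the median of all genes tested (-0.10). Receptors and targets spread from -7.33 to 6.22, whereas the members stay between -1.22 and 1.49.

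The c-Kit+ gate was checked against markers, and the groups differed in the lineages they held. Kit mRNA was at 72.4 ± 1.96 FPKM in MPs and 40.4 ± 0.623 in APL, and Ly6a, the gene of Sca-1, at 1.36 ± 0.355 and 2.18 ± 0.175. The summed level of 10 erythroid markers, led by Car1 in MPs and by Hba-a1 in APL, was 1491, 1566 and 1955 FPKM in the MP libraries and 13.7, 24.99 and 16.1 in the APL libraries, and that of 7 megakaryocyte markers, led by Pf4 in MPs and by Gp1bb in APL, was 84.8 ± 20.1 and 4.83 ± 0.588. Of the erythroid markers 7 of 8 tested were called lower, and of the megakaryocyte markers 6 of 7. Both sums were highest in MP library 3, as were the levels of Stat5a, Stat5b and Epor. Among the MP libraries, Jak1, Jak2, Jak3, Stat3, Stat4 and Stat6 were also highest in library 3, and Stat2 was highest in library 1. The scaled fragments of all genes summed to 24288946 in MP library 3, against 22108198 and 21876288 in MP libraries 1 and 2. The MP libraries held erythroid and megakaryocytic RNA that the APL libraries nearly lacked, beside the falls of Stat5a, Stat5b, Jak2 and Epor, and its part in those falls was not tested.

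The eosinophil markers, led by Prg2, summed to 188 ± 64.9 FPKM in MPs and 33.5 ± 9.53 in APL, with 4 of 4 called lower, and the mast cell and basophil markers to 97.1 ± 11.3 and 57.9 ± 4.85, with 5 of 7 called lower. Myeloid progenitor markers, led by Mpo in MPs and by Elane in APL, summed to 9233 ± 603 FPKM in MPs and 26027 ± 2416 in APL (5 of 10 called higher, 3 lower, Cd34 among the latter), and mature neutrophil markers, led by S100a8, to 15318 ± 3313 and 54181 ± 7382 (2 of 9 higher, 2 lower). Without S100a8 and S100a9 the other 7 neutrophil markers summed to 1800.3 ± 624 FPKM in MPs and 1127 ± 86.8 in APL. Monocyte, macrophage and dendritic cell markers summed to 921 ± 81.4 and 10843 ± 167 FPKM, mostly Ly6c2, with 4 of 9 called higher and 4 lower. B cell markers went from 14.9 ± 0.950 to 272 ± 22.4 FPKM, mostly from Cd79b in MPs and from Igll1 in APL, while Ms4a1 was under 0.1 FPKM in both groups. The part of these differences in the higher values of Stat4, Stat6 and Csf3r was not tested.

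The genes whose pattern over the 6 libraries was most like that of Stat4, by Pearson r of log2(scaled fragments + 1), were Tpp1 (r = 0.9998), Arfgap3 (0.9997) and Pex2 (0.9997). Of the 10309 genes compared, 678 had r over 0.99 with Stat4. For Jak1, the member with the highest mean FPKM, they were 4930444A02Rik (0.9986), Top1mt (0.9979) and Klc4 (0.9953), and 20 genes had r over 0.99. The 6 points share their group difference, so these values are descriptions.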

How the data were processed

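Total RNA of 3 MP and 3 APL libraries was sequenced. The sources give CASAVA 1.8 and TopHat2 2.0.6 with mm10 in the submitters' processing notes and STAR with mm9, HTSeq-count and DESeq2 in the paper's methods, and the tool that made the table is not given in the sources used here. The deposited FPKM values were normalized by the authors to length and library. The deposited fragment values are a signal: estimated fragments that the authors had scaled per library. Dividing by the value of 1 fragment in each library gave whole numbers (within 0.01) for 81.5% to 87.1% of values, so no count test was used. Loci follow mm10, and coordinates printed are those of RefSeq for GRCm38.p6.

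Differences were fitted with limma 3.58.1 in R 4.3.3 (trend), after adding 1 to the scaled fragments and taking log2. Genes at 1 or more in at least 3 of 6 libraries were kept. The fit was also run on simulated data, with the same added spread in every library and a fold threshold lower than 1.5. That run does not check the calls made here. The thresholds of 0.05 and 1.5 are those of the study's methods, here with an adjusted p. The members and lists were chosen with earlier results of these data known. Genes named were all members, the 2 largest called decreases and increases of each list with a mean of at least 100 scaled fragments, and genes with direct ties to the members, of which some are not reported here. Csf2ra, Il3ra, Il5ra, Csf2rb2, Lifr, Il7r, Il2rb, Il12rb1, Il12rb2, Ptpn1, Ptprc, the Pias genes, Ccnd1, Bcl6, Tyk2 and overlapping genes were added after their values were seen. Osmr and Prlr were not analysed here, and Il23r did not pass the filter. Alternatives changed the filter, pseudocount, unit, scaling, thresholds, replicate block and libraries. A planned comparison of protein sequences was not made. Figures were drawn with matplotlib 3.10.9.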

Additional observations from a re-analysis of the deposited data

How the results depend on the processing

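The log2 fold changes of Stat2, Stat3, Stat4, Stat5a, Stat5b, Stat6, Jak2 and Jak3 kept their direction under the 17 alternatives run. The adjusted p of Stat2 was 0.42 with the same total per library and with voom weights, between 0.0195 and 0.111 with a library left out, and over 0.05 in all but the one without MP library 3, while that of Jak3 fell to 0.0067 with voom weights. With no fold threshold 4 members and 41 pathway genes were higher, beside 29.7% of all genes. At that setting 3 members and 25 pathway genes were lower, beside 37.3% of all genes. With a fold over 2, 1 member was higher and only 1 lower, Stat5a. The shares of all genes at that fold are not given here, so these 2 counts are descriptions. Median ratio scaling called 2 members higher, Stat4 and Stat6 (0.59), and 3 lower. Of all 14596 genes tested with that scaling, 3398 were called higher and 3268 lower. The direction of Jak1 turned with the same total per library (-0.0067) and voom weights (-0.0068), and that of Mcl1 with the same total (-0.058), voom (-0.058) and quantile normalization (-0.044). Those first 2 settings moved the median of all genes from -0.10 to -0.23 and ended the calls of Bcl2l1 and Ncoa1. FPKM ended that of Ncoa1 too. Leaving out APL library 2 also ended the call of Bcl2l1, and leaving out MP library 3, like median ratio scaling, added one for Pim1. Leaving out each library in turn gave 1 member higher and 3 lower every time, 25 to 30 pathway genes higher and 17 to 18 lower. Of the 14068 to 14199 genes tested in those fits, 2734 to 3256 were called higher and 2913 to 3507 lower. On FPKM, 11131 genes were tested, with 2151 called higher and 1980 lower, against 3167 and 3558 on scaled fragments, and genes near the floor had smaller differences (Epor -4.76, Il6st -2.67, Ccnd2 -3.95, Ghr 3.35, Il13ra1 1.90, Socs3 1.04), since a pseudocount of 1 weighs more on that scale. Same-numbered MP and APL libraries had correlations of deviations of 0.214, 0.0416 and 0.209, against -0.345 to 0.2 for the other pairs. With 3 libraries per group, these values cannot decide whether the numbers pair the libraries. The replicate block gave 1 member higher and 3 lower, and 3164 genes higher and 3589 lower. A count model was not run, because the fragment values are not whole.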
